A study of Mus musculus with 2 samples.

Results

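Barcodes with macrophage and monocyte RNA were followed in a sort of tumor endothelial cells that had been gated against the leukocyte protein CD45. A barcode is the tag that marks the RNA of 1 droplet, and a UMI is 1 counted RNA molecule. Every barcode that held 500 genes or more and less than 10% mitochondrial UMIs was scored with 5 short panels: P (C1qa, C1qb, Tyrobp, Lyz2) for macrophages and monocytes, L (Ccl21a, Prox1, Lyve1, Flt4, Mmrn1) for lymphatic endothelium, B (Flt1, Plvap, Emcn, Gpihbp1, Cd34) for blood endothelium, M (Dct, Pmel, Mlana, Tyrp1) for melanoma, and S (Rgs5, Acta2, Col1a1, Col3a1) for mural cells and fibroblasts. Members were chosen by these measured counts alone: a barcode was kept if its P panel held at least 5 UMIs and more than each other panel. This gave 138 members of 3334 barcodes, 63 of 1782 in Ifngr1iProx1 (Cre plus) and 75 of 1552 in Ifngr1WT (Cre minus). The Ifngr1iProx1 mice carry Cre, and their name gives Ifngr1, the receptor chain to which interferon-γ binds, and Prox1, a transcription factor of lymphatic endothelium. The Ifngr1WT mice are the Cre-negative group. Mice of both groups had an intradermal implant of 500K B16F10-OVALBUMIN/VEGFC cells, a melanoma line with a model antigen and a lymphatic growth factor. Tumors were taken on day 15, 3 were pooled for each genotype, and DAPI-negative, CD31-positive, CD45-negative cells gave 1 single-cell 3′ library per genotype. There are no replicates, so no comparison of the genotypes was tested, and intervals in brackets are exact 95% intervals that cover counting error only.

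Macrophages are phagocytes that live in tissues, and many arise there from monocytes that leave the blood. The C1q genes encode the chains of the first complement component, which macrophages secrete, Tyrobp encodes an adaptor that carries signals from receptors such as TREM2, and Lyz2 encodes lysozyme. Interferon-γ, made by T and NK cells, binds a receptor of IFNGR1 and IFNGR2 chains, whose signal induces guanylate-binding proteins, immunity-related GTPases and antigen presentation genes in macrophages and endothelial cells alike.

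Members were 3.54% [2.73, 4.50] of the barcodes in Cre plus, against 4.83% [3.82, 6.02] in Cre minus, and the intervals overlap. They were deep: their median UMI count was 28369 for Cre plus and 24430 for Cre minus members, against 14935 and 5780 in the barcodes led by the L panel (the L class). The deepest member of Cre plus held 162901 UMIs and that of Cre minus 195130, and the shallowest 1106 and 2163. Malat1, a nuclear RNA, made up 0.1% or more of the UMIs in 93.7% of Cre plus and 88.0% of Cre minus members. The libraries held 66704257 UMIs in 2491 barcodes of Cre plus and 76967583 UMIs in 2502 barcodes of Cre minus, and shared 1 barcode, which was not a member in either. At the threshold, 1 member each had 5, 8, 9 and 10 P panel UMIs in Cre plus, and 1 each had 6 and 7 in Cre minus. Just outside it, P was the largest panel with 1 UMI in 1 Cre plus and 3 Cre minus barcodes and with 2 UMIs in 1 and 2, while none had 3 or 4. Of barcodes with at least 5 P panel UMIs, 2 of Cre plus and 3 of Cre minus had more of the L panel, 3 and 12 had more of the M panel, 1 and 1 had more of the S panel, and 1 of Cre minus had a tie.

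The label names these barcodes macrophages and monocytes, and the markers that the rule did not use were high in them. Csf1r, the receptor for the growth factor that macrophages need to survive, had 235 CPM (UMIs scaled to the UMIs of all genes) in Cre plus members and 265 in Cre minus members, against 1.36 and 11.4 CPM in the L class. Cd68, a lysosomal glycoprotein of phagocytes, had 644 CPM in Cre plus members and 655 in Cre minus members, against 11.7 and 15.7 in the L class. A Csf1r UMI was seen in 61.9% of Cre plus and 76.0% of Cre minus members, against 1.52% and 1.36% of the L class. A Cd68 UMI was seen in 87.3% of Cre plus and 85.3% of Cre minus members, against 12.4% and 9.55% of that class. All 16 genes of a list of macrophage identity genes outside the rule, among them C1qc, Mpeg1 and Adgre1 (which encodes F4/80), were over 2-fold higher in members than in the L class, in both libraries. Of all genes measured against that class, 13.2% were 2-fold higher in Cre plus members and 19.8% in Cre minus members. The sort label of the series is endothelial, and against it stood Ptprc, the gene of CD45, with 639 CPM in members of Cre plus and 732 CPM in those of Cre minus. A Ptprc UMI was present in 92.1% of Cre plus and 88.0% of Cre minus members, against 0.759% and 0.909% of the L class and none of the 204 and 221 barcodes of the B class. Members held 88.7% of all Ptprc UMIs of the Cre plus barcodes and 83.5% of those of Cre minus. Pecam1, the gene of CD31, had 112 CPM in Cre plus against 66.8 CPM in Cre minus members, under the 397 and 372 CPM of the L class and the 1171 and 1352 CPM of the B class.

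**Figure D1:**
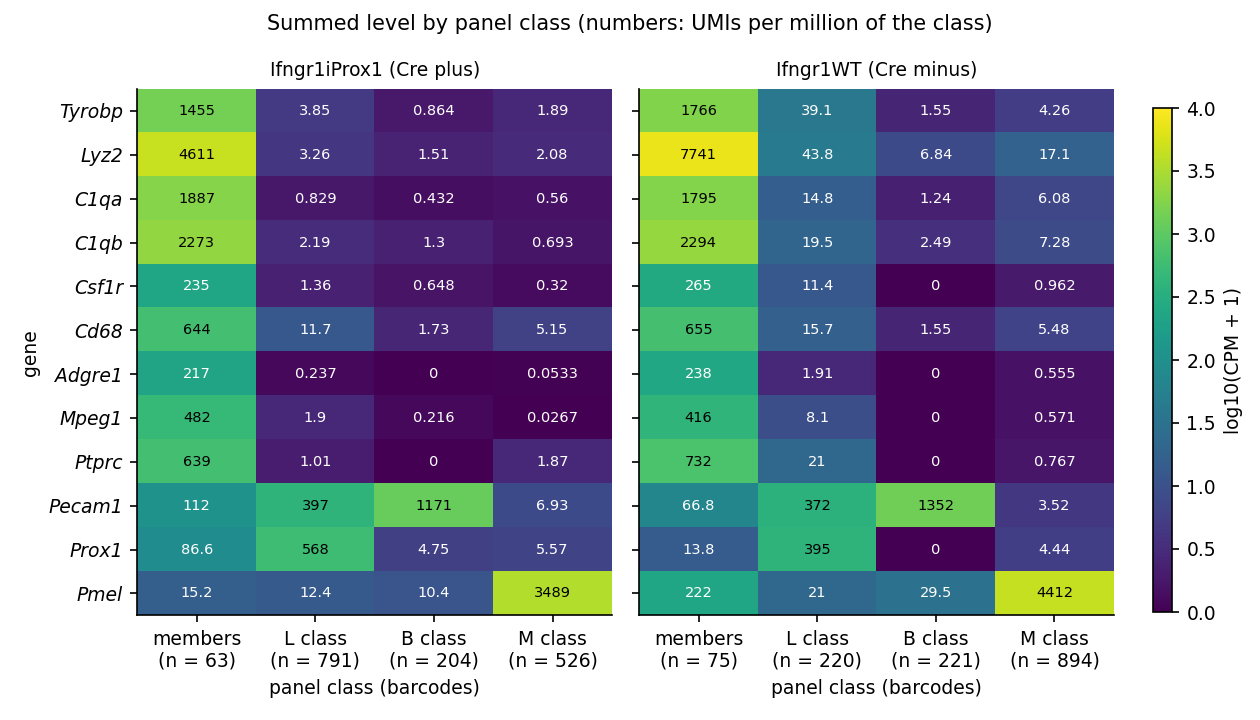
Levels of 12 marker genes, in CPM of the summed barcodes (numbers, with color on a log10(CPM + 1) scale), in the members and in the classes led by the L, B and M panels, Cre plus left and Cre minus right. Tyrobp reached 1455 CPM in Cre plus members and 1766 CPM in Cre minus members, while Pecam1 was highest in the B class of both libraries.

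The rule chose barcodes from the same counts, so genes high in them are a description. Against all other barcodes, 15.2% of genes were 2-fold higher in members in Cre plus against 18.7% in Cre minus, and nothing is read from these counts. The 15 leading genes outside the panel were Cybb, Ms4a6c, Chil3, Aoah, Mpeg1, Fcrls, Clec4a1, Ctss, Ms4a7, C3ar1, Ly6i, Msr1, Clec4a3, C1qc and Adgre1. Cybb, the catalytic chain of the phagocyte NADPH oxidase, had 1067 UMIs in the 63 Cre plus members against 19 in all other Cre plus barcodes, and 1488 against 33 in Cre minus. Ctss, a lysosomal protease of antigen presentation, had 5158 UMIs in Cre plus members against 246 in the rest, and 5373 against 390 in Cre minus. Msr1 encodes a scavenger receptor and C3ar1 the receptor for the complement fragment C3a. C1qa (chr4:136895917-136898803), C1qc (chr4:136889804-136893065) and C1qb (chr4:136880129-136886187) lie side by side on the minus strand (mm10, GENCODE M21), and members held 99.1% of the C1qa UMIs in Cre plus against 91.7% in Cre minus. With each barcode thinned to 1000 UMIs, a P panel UMI was seen in 0.632% of the L class in Cre plus against 3.18% in Cre minus. In the M class the shares were 1.33% and 3.36%. The rule keeps barcodes led by the P panel out of these classes, so low shares there are in part set by it. Reads of Lyz2 may be split with its near copy Lyz1.

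Most members carried little lymphatic RNA, and a few carried much. The L panel summed to 2646 UMIs (1146 CPM) in Cre plus members and 612 UMIs (240 CPM) in Cre minus members, against 7119 and 8073 CPM of panel L in the L class of the same libraries. It was 0 in 31 of 63 Cre plus and 55 of 75 Cre minus members. The 9 Cre plus members with at least 20 L panel UMIs held 96.9% of the sum, and the 4 such Cre minus members held 91.2%. Outside them the L panel stood at 52.4 CPM in Cre plus against 24.0 CPM in Cre minus. L panel counts over 10% of the P panel count were found in 10 Cre plus members (15.9% [7.88, 27.3]) and 4 Cre minus members (5.33% [1.47, 13.1]). Thinned to 1000 UMIs, 12.7% of Cre plus and 8.0% of Cre minus members kept an L panel UMI.

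Most members with much lymphatic RNA held endothelial RNA outside the panel too. The Cre plus member with the most, at 650 L panel UMIs among 162901, had 364 UMIs of Lyve1, a hyaluronan receptor, 137 of the chemokine Ccl21a and 61 of Prox1, beside 1027 P panel UMIs. A Cre minus member had 66 Lyve1 UMIs and 0 of Ccl21a, Prox1, Flt4 and Mmrn1, beside 1251 P panel UMIs and 2 UMIs of the pan-endothelial list. Another Cre minus member had 164 L panel UMIs, with 127 of Ccl21a and 0 of Prox1. It held 13 UMIs of the pan-endothelial list among 28332. Tissue macrophages can express Lyve1 themselves. Lyve1 made up 26.9% [25.2, 28.6] of the L panel in the 9 Cre plus members and 33.2% [29.3, 37.2] in the 4 Cre minus members, against 13.7% and 12.2% in the L class, and Ccl21a made up 51.1% and 47.8% against 60.3% and 68.6%. Whether these barcodes hold 2 cells, lymphatic material taken up, or Lyve1 of the macrophage was not tested.

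Melanoma RNA was spread thinly over the members, apart from 2 Cre minus barcodes. The M panel, 4 genes of pigment synthesis and the melanosome, summed to 127 UMIs (55.0 CPM) in Cre plus members, with at most 9 in any, and 3213 UMIs (1263 CPM) in Cre minus members. A pair of Cre minus members with 1890 and 1135 M panel UMIs held 94.1% of that sum, and the others stood at 85.9 CPM. The first of them had 1253 Dct, 332 Pmel and 526 Vegfc UMIs beside 2074 P panel UMIs. Vegfc, the lymphatic growth factor the tumor line is named for, had 562 UMIs in Cre minus members in all, 526 of them in that barcode, and 10 in Cre plus members. An M panel count over 10% of the P panel count was found in 4 Cre plus members (6.35%) and 7 Cre minus members (9.33%). At 1000 UMIs per barcode an M panel UMI was seen in 9.52% of Cre plus and 10.7% of Cre minus members, beside 5.69% and 7.27% of the L class, which should lack the genes. The B panel summed to 244 UMIs in Cre plus against 82 in Cre minus members, and the S panel to 5 and 4.

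**Figure D2:**
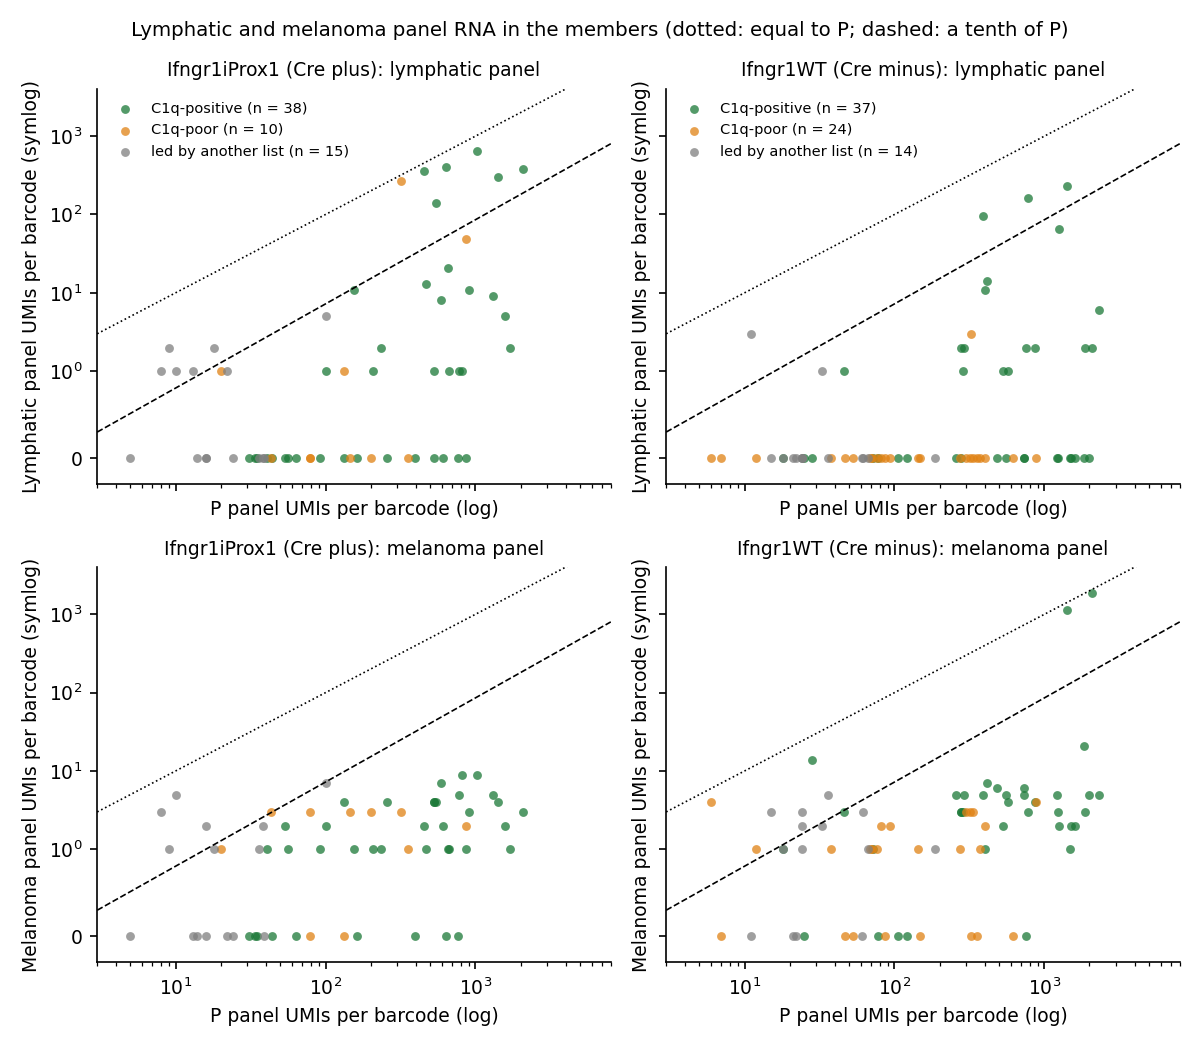
Each point is a member, by its P panel UMIs (log axis) and its L panel UMIs (top) or M panel UMIs (bottom, both linear near 0 and log above), Cre plus left and Cre minus right, colored by kind. Cre plus members reach 650 L panel UMIs and at most 9 M panel UMIs, and 2 Cre minus members reach 1890 and 1135 M panel UMIs.

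The 138 members were of several kinds, by a split chosen after the values were seen. Those in which a marker list of another leukocyte outnumbered the P panel were set apart, and the rest were split at 5 summed UMIs of C1qa and C1qb. C1q-positive members numbered 38 of the 63 Cre plus members (60.3% [47.2, 72.4]) and 37 of the 75 Cre minus members (49.3% [37.6, 61.1]). C1q-poor members numbered 10 in Cre plus (15.9% [7.88, 27.3]) and 24 in Cre minus (32% [21.7, 43.8]). Another list led in 15 Cre plus and 14 Cre minus members, which leaves 48 of 63 and 61 of 75 led by none. Apoe, a lipid carrier that tissue macrophages secrete, stood at 6646 CPM in C1q-positive members of Cre plus and 7229 CPM in those of Cre minus, against 613 and 633 CPM in the C1q-poor members. Mrc1, the mannose receptor, had 951 UMIs in C1q-positive members of Cre plus and 1316 in those of Cre minus, against 3 and 24 in C1q-poor members.

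Genes of blood monocytes stood higher in the C1q-poor than in the C1q-positive members. Plac8 stood at 1687 CPM in C1q-poor members of Cre plus and 2666 CPM in those of Cre minus, against 405 and 198 CPM in C1q-positive members. Ccr2, the receptor that draws monocytes out of the marrow and into tissue, stood at 160 CPM in the C1q-poor members of Cre plus and 369 CPM in those of Cre minus, against 49.4 and 91.2 CPM in C1q-positive ones. Hp, which encodes haptoglobin, had 53 UMIs in C1q-poor members of Cre plus and 427 in those of Cre minus, against 16 and 43 in C1q-positive ones. Csf1r stood at 230 CPM in the 9 unmixed C1q-poor members of Cre plus against 589 CPM in the 23 of Cre minus.

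Members led by another list kept low P panel counts, from 5 to 100 in Cre plus against 11 to 187 in Cre minus. The neutrophil list led in 8 Cre plus and 5 Cre minus members, where S100a8, an abundant calcium-binding protein of neutrophils, reached 8223 CPM and 25364 CPM. The dendritic cell list led in 3 and 5, with 1185 and 619 CPM of Ccr7, the receptor that guides dendritic cells to lymph vessels. The T and NK cell list led in 3 and 2, with Gzma, a granzyme of killer cells, at 1568 and 17159 CPM. Of the UMIs of that list in all Cre minus members, 1 barcode held 84.3%. Platelet genes led in 1 member of each library and mast cell genes in 1 of Cre minus, and the list of B and plasma cells led in none of 63 and none of 75, which allows up to 5.69% and 4.8% by the exact interval.

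**Figure D3:**
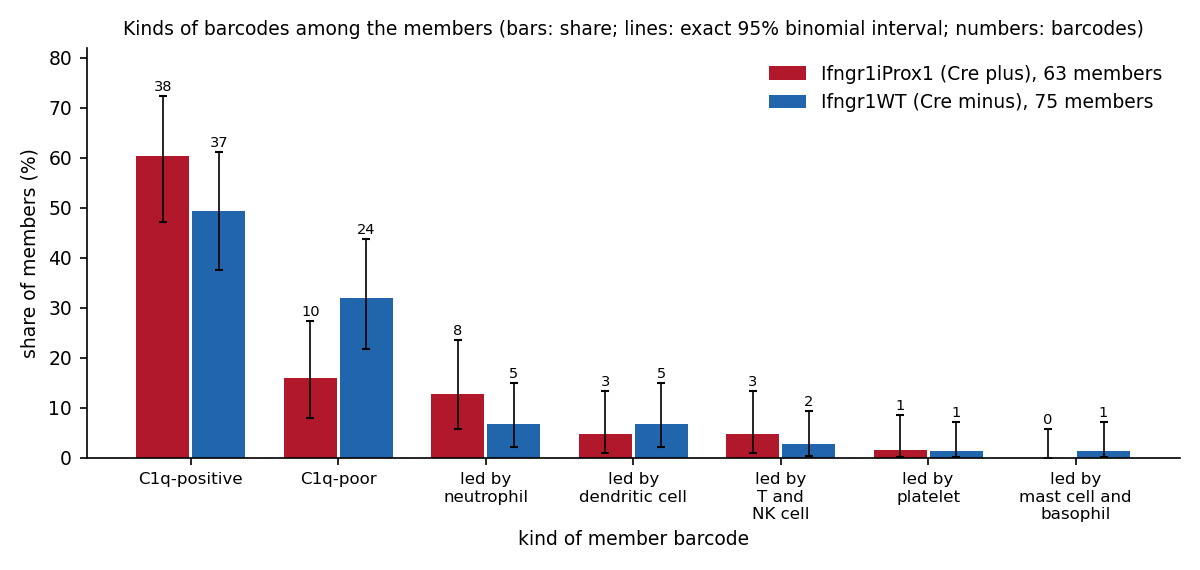
Share of members (%) of each kind, in 63 Cre plus and 75 Cre minus members, with exact 95% binomial intervals and the number of barcodes above each bar. C1q-positive members are the commonest kind in both libraries, 38 in Cre plus against 37 in Cre minus.

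Cre plus members were then set against Cre minus members, to ask how macrophages differ between tumors of the genotypes. UMIs were summed over members and scaled to CPM, and ratios are log2 of Cre plus over Cre minus. Of 8697 genes with at least 50 UMIs, 349 (4.01%) were 2-fold higher and 275 (3.16%) were 2-fold lower, 7.17% in all, with a median of 0.02. Ifngr1 itself was present in both, with 130 CPM in Cre plus against 161 CPM in Cre minus members, a log2 ratio of -0.30 [-0.52, -0.08]. In the C1q-positive members without mixed barcodes (33 and 32), where mixed means that the L, B, M and S panels together exceed 20% of the P panel, Ifngr1 stood at 124 CPM in Cre plus against 109 CPM in Cre minus. Ifngr1 (chr10:19591949-19610229, plus strand) was counted at its 3′ end, and the sources used here do not name the deleted part. The list of macrophage identity genes outside the rule summed to 9802 CPM in Cre plus against 9772 CPM in Cre minus, with 0 of 16 genes 2-fold higher and 1, Cx3cr1, 2-fold lower.

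The interferon-induced GTPases were higher in Cre plus members, all 15 measured of 19 listed, and 4 of them past 2-fold, with a median of 0.86 beside 0.02 for all genes. Over all genes, 4535 of 8697 were higher and 4.01% were 2-fold higher. Their summed level was 1528 CPM in Cre plus against 817 CPM in Cre minus, a log2 ratio of 0.90 [0.82, 0.98]. These proteins attach to membranes around microbes that have entered a cell. Gbp2, a guanylate-binding protein, had 695 UMIs (301 CPM) in Cre plus against 390 (153 CPM) in Cre minus, a ratio of 0.97 [0.79, 1.16]. Iigp1, an immunity-related GTPase, had 589 UMIs in Cre plus against 305 in Cre minus, a ratio of 1.09 [0.89, 1.29]. Gbp8 had 205 and 90 UMIs (1.33 [0.96, 1.70]) and Gbp7 288 and 156 (1.02 [0.74, 1.32]). Irgm1, which regulates the other immunity-related GTPases, had the smaller ratio of 0.52 [0.24, 0.80], with 242 UMIs in Cre plus against 186 in Cre minus. Ifi47, at 0.86, and Gbp4, at 0.89, lay between them, and the interval of Gvin1, at 0.59 [-0.09, 1.28], was the one that held 0. Several of these genes are near copies of each other (Tgtp1 and Tgtp2, the Gbp clusters) or overlap in the annotation (Gbp4, Gbp8 and Gbp9 on chromosome 5), so single values of such copies are uncertain.

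The promoters of 4 GTPase genes are shown because these genes moved together; they run from 250 bases before to 50 after the gene start (RefSeq, GRCm38.p6), Gbp2 at chr3:142620413-142620712 plus strand, Gbp7 at chr3:142530086-142530385 plus, Igtp at chr11:58199306-58199605 plus and Irgm1 at chr11:48871371-48871670 minus. Capitals mark matches to the core of the interferon-stimulated response element (GAAA, any 2 bases, GAAA), or to TTCNNNGAA, the core of the interferon-gamma activated site, on either strand.
Gbp2: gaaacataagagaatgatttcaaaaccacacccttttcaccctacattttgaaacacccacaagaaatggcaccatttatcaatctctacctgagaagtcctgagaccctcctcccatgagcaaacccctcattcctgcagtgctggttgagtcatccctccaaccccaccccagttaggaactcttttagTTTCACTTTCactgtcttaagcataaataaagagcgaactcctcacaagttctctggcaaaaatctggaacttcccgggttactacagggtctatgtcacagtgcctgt
Gbp7: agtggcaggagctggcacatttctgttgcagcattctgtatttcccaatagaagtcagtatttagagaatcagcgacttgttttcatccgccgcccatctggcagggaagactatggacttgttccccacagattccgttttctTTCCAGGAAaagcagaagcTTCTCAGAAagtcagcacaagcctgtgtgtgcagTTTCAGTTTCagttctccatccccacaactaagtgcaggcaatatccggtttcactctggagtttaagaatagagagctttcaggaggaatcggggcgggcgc
Igtp: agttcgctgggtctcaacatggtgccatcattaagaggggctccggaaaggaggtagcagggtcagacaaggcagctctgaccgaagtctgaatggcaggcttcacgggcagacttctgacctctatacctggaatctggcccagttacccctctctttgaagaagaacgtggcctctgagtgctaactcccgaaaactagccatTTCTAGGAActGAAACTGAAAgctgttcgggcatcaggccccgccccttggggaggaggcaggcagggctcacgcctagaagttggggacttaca
Irgm1: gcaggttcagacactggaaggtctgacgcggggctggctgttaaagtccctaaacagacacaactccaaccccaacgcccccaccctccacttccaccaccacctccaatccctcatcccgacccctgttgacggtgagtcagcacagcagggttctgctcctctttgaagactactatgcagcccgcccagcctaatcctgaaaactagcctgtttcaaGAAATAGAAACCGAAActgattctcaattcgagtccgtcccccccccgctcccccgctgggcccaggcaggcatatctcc
In Gbp2 the response element core starts at -59 on the minus strand, in Igtp an activated site core at -45 stands before a response element core at -34, and in Irgm1 a pair of response element cores overlap at -30 and -24. Gbp7 holds activated site cores at -106 and -87 and a response element core at -53 on the minus strand. Of the 19 listed GTPases 11 have a promoter in the table, and 10 of these (90.9%) hold a response element core and 6 (54.5%) an activated site core, against 3.99% and 9.55% of all 27025 genes there. A match is a run of letters and not evidence of binding in these cells.

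The median GTPase level per barcode was higher in Cre plus for each kind of member. Among C1q-positive members the list had a median of 1311 CPM per barcode in Cre plus against 394 CPM in Cre minus, with ranges of 0 to 7527 and 0 to 5157 that overlap. Among C1q-poor members the medians were 1012 CPM in Cre plus against 330 CPM in Cre minus, and among those led by another list 412 and 291. In the latter the lower quartile was lower in Cre plus, at 55.8 against 167 CPM, and the upper quartile higher, at 1582 against 902 CPM. In unmixed C1q-positive members the summed ratio was 0.91 [0.80, 1.03], in unmixed C1q-poor members 0.63 [0.42, 0.83] and in the 10 and 8 mixed members 1.11 [0.94, 1.28]. Pan-endothelial genes moved with it, at 271 CPM in unmixed C1q-positive members of Cre plus and 93.4 CPM in those of Cre minus, and their part in the ratio was not tested.

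**Figure D4:**
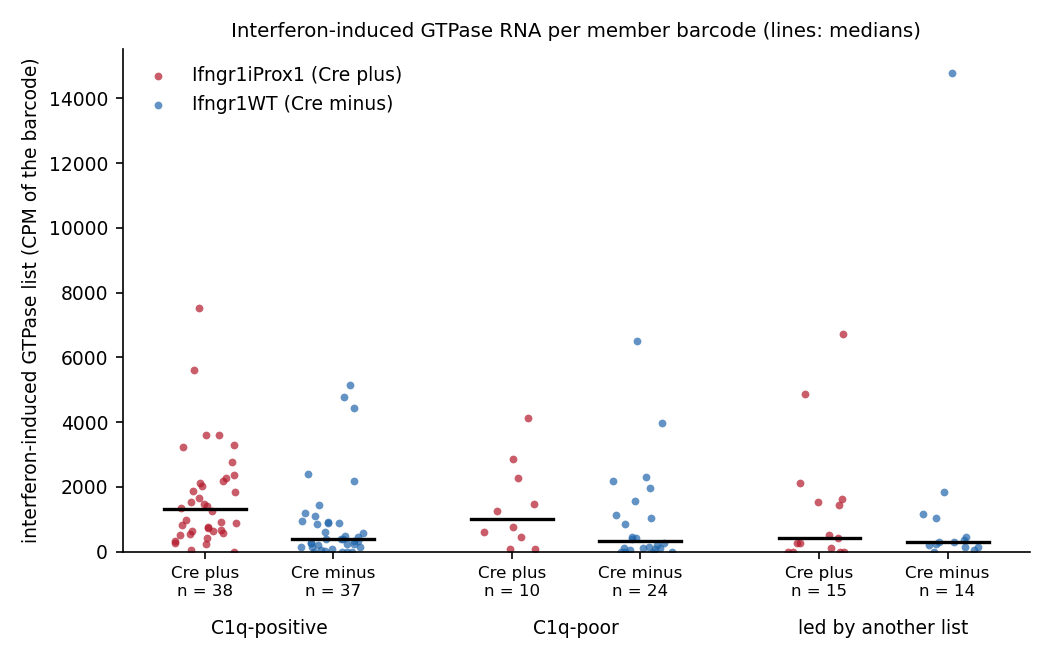
Summed interferon-induced GTPase RNA of each member in CPM of that barcode, by kind, Cre plus left of Cre minus, with a line at the median. The medians of C1q-positive members are 1311 CPM in Cre plus against 394 CPM in Cre minus, and the points of the libraries overlap.

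Other genes of the interferon pathway differed less evenly. Irf8, a transcription factor of the monocyte lineage, had 698 UMIs in Cre plus against 451 in Cre minus members (0.77 [0.60, 0.94]). Irf1, an interferon-induced transcription factor, had 396 UMIs in Cre plus against 416 in Cre minus, a ratio of 0.07 whose interval [-0.13, 0.27] holds 0. Of 19 measured genes of interferon receptors and signalling, 13 were higher and none 2-fold either way. Of 32 measured type I interferon response genes, 26 were higher and 5 past 2-fold, beside 4535 of 8697 genes higher and 4.01% past 2-fold in all. Rsad2, an antiviral enzyme (viperin), stood at 766 UMIs in Cre plus against 199 in Cre minus (2.08 [1.86, 2.32]), of which 1 barcode held 37.2% and 33.2%. Isg15, a ubiquitin-like protein, had 1424 and 834 UMIs (0.91 [0.79, 1.04]). Mixed barcodes held 4507 of the 13284 UMIs of the type I list in Cre plus against 1055 of 10392 in Cre minus. The summed ratio of that list was 0.49 [0.46, 0.53] in all members and 1.63 [1.54, 1.73] in the 10 and 8 mixed ones. Among unmixed members it was 0.16 [0.11, 0.21] in C1q-positive, 0.10 [-0.003, 0.19] in C1q-poor and 0.90 [0.74, 1.06] in those led by another list.

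Antigen presentation genes were modestly higher in Cre plus members. Of 22 measured MHC class I presentation genes 20 were higher and 3 past 2-fold, with a median of 0.39 beside 0.02 for all genes. Of all 8697 measured genes, 4535 were higher and 4.01% were 2-fold higher. The summed ratio of that list was 0.33 [0.30, 0.35] in all members and 0.77 [0.71, 0.83] in mixed ones. It was 0.17 [0.14, 0.20] in unmixed C1q-positive and 0.67 [0.60, 0.74] in unmixed C1q-poor members. B2m, the constant light chain of class I, had 6655 UMIs in Cre plus against 5907 in Cre minus (0.31 [0.26, 0.36]), and H2-K1, a classical heavy chain, 3943 and 3317 (0.39 [0.32, 0.46]). The larger ratios, chosen after their values were seen, were those of the nonclassical H2-Q7, at 637 and 310 UMIs (1.18 [0.98, 1.38]), and H2-Q4, at 277 and 140 (1.12 [0.83, 1.43]), and reads of these related genes can be shared. Of 14 measured MHC class II genes 10 were higher and none past 2-fold. Cd74, the invariant chain, had 10095 UMIs in Cre plus against 9090 in Cre minus (0.29 [0.25, 0.33]) and H2-Aa 3880 and 3338 (0.36 [0.29, 0.42]). The class II list summed to 15593 CPM in unmixed C1q-positive members of Cre plus against 12080 CPM in those of Cre minus, and to 23572 CPM and 10442 CPM in unmixed C1q-poor members. In unmixed members led by another list the direction was the opposite, with 8709 CPM in Cre plus against 19459 CPM in Cre minus.

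Among molecules that act on T cells, Cd274, which encodes PD-L1, had 924 UMIs in Cre plus against 513 in Cre minus members, a ratio of 0.99 [0.83, 1.15] and 0.93 in unmixed C1q-positive members. Cxcl9, a chemokine for T cells, had 1636 UMIs in Cre plus against 641 in Cre minus (1.49 [1.36, 1.63]), but 1007 of the 1636 lay in the 10 mixed barcodes. In unmixed C1q-positive members its ratio was -0.56, with 372 UMIs in 13 of 33 Cre plus and 581 UMIs in 8 of 32 Cre minus barcodes. Cxcl10 did not differ beyond counting error, with 583 and 672 UMIs (-0.06 [-0.23, 0.10]). Of 17 measured chemokines 10 were higher and 7 lower, with a summed ratio of 0.11 in all members and -0.09 in unmixed C1q-positive ones. Ccl8 had 2450 UMIs in Cre plus against 1931 in Cre minus (0.48 [0.40, 0.57]), and Ccl6 1781 and 2830 (-0.53 [-0.61, -0.44]). The complement, Fc receptor and lysosome lists moved little, with summed ratios of 0.05, -0.05 and 0.01 in all members and -0.03, -0.11 and -0.06 in unmixed C1q-positive ones, and none of 15 measured Fc receptor and adaptor genes and none of 25 lysosomal genes was 2-fold different.

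Genes of cell division were lower in Cre plus members when UMIs were summed. All 27 measured genes of mitosis and replication were lower, 14 past 2-fold, beside 4162 of 8697 genes lower and 3.16% past 2-fold in all. Their sum was 1414 CPM in Cre plus against 2474 CPM in Cre minus, a ratio of -0.81 [-0.87, -0.75]. Mki67, a marker of cycling cells, had 104 UMIs in Cre plus against 351 in Cre minus (-1.61 [-1.94, -1.30]). Stmn1, a microtubule regulator of dividing cells, had 141 and 582 UMIs (-1.91 [-2.18, -1.64]). The sum rested on few barcodes: the member with the most held 17.7% of it in Cre plus against 20.5% in Cre minus. The highest level in Cre minus, 13227 CPM, was in a member led by another list. The median per barcode was 719 CPM in Cre plus against 652 CPM in Cre minus. Within unmixed C1q-positive members the ratio was -0.56 [-0.64, -0.49], and within unmixed C1q-poor members 0.08 [-0.26, 0.41]. It was -1.20 [-1.38, -1.03] in unmixed members led by another list and -1.31 [-1.47, -1.16] in mixed members. Of 25 measured nuclear genes of oxidative phosphorylation 23 were lower and none past 2-fold, with a summed ratio of -0.24 [-0.27, -0.22] that turned to 0.50 [0.41, 0.58] in unmixed C1q-poor members. An example is Cox4i1 at 1741 and 2331 UMIs (-0.28 [-0.37, -0.19]).

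Lists of scavenger receptors and efferocytosis and of lipid-associated macrophages were flat in the sum over all members but not in each kind. Other lists of macrophage states were not flat in sum. Of 15 measured genes of scavenger receptors and efferocytosis 8 were higher and 7 lower, with a summed ratio of 0.03 [-0.02, 0.08], and of 16 lipid-associated macrophage genes 10 were higher and 6 lower, with a summed ratio of 0.01 [-0.01, 0.03]. In unmixed C1q-positive members both ratios were 0.00. The scavenger ratio was -0.96 in unmixed C1q-poor, 0.32 in mixed and -0.02 in unmixed members led by another list. The lipid-associated ratio was 1.00, -0.88 and 0.66 in the same 3 sets. Single genes lay apart from their lists. Mertk, a receptor for engulfing dead cells, had 399 UMIs in Cre plus against 193 in Cre minus (1.19 [0.94, 1.44]), and Mmp14, a membrane protease that cuts matrix, 861 and 404 (1.23 [1.06, 1.41]). Trem2, a lipid receptor, had 484 and 837 UMIs (-0.65 [-0.81, -0.49]), and Spp1, which encodes osteopontin, 1833 and 3547 (-0.81 [-0.89, -0.73]), with 71.0% of its Cre minus UMIs in 1 barcode. Retnla, a secreted product of alternatively activated macrophages, had 14 UMIs in Cre plus against 973 in Cre minus, and 95.5% of its Cre minus UMIs lay in 1 barcode. The alternative activation list had a summed ratio of -0.55 [-0.63, -0.48], and -0.53 [-0.62, -0.44] in unmixed C1q-positive members. Of its 14 genes 7 were higher and 7 lower, with 2 and 5 past 2-fold, beside 4.01% and 3.16% of all genes. In all members 1 barcode held 23.4% of its Cre minus UMIs. The highest level in any Cre minus member, 23043 CPM, was in an unmixed C1q-positive barcode, so the ratio of that set does not leave it out. In that set the median per barcode was 940 CPM in Cre plus against 865 CPM in Cre minus. The mature tissue macrophage list stood at 0.15 [0.11, 0.19] in sum, with 7 of 13 measured genes higher, beside 4535 of 8697 of all genes. In unmixed C1q-positive members its sum stood at 0.23 [0.18, 0.28], but the median of its genes was -0.17. The sum was -0.90 in mixed and 1.03 in unmixed C1q-poor members. In all members 1 barcode held 19.3% of its UMIs in Cre plus and 1 held 17.2% in Cre minus. Of 15 measured monocyte genes 12 were lower and 6 past 2-fold lower, beside 4162 of 8697 and 3.16% of all genes, with a summed ratio of -0.17 [-0.22, -0.11]. That ratio was -0.05 [-0.13, 0.03] in unmixed C1q-positive, -0.89 in unmixed C1q-poor and 1.22 [1.09, 1.36] in mixed members. Ccr2 had 140 UMIs in Cre plus against 370 in Cre minus (-1.26 [-1.55, -0.98]), and Hp 93 and 504 (-2.30 [-2.63, -1.98]). C1q-poor members were 10 of 63 in Cre plus against 24 of 75 in Cre minus, and the part of that share in these ratios was not tested.

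By the rule for single genes, the 12 highest ratios belonged to Col23a1, Inhbb, Akap12, Timp3, Myo1d, Cavin3, Tspan18, Lrrc32, Glis3, Bok, Dpysl3 and Col18a1, each found in 7 to 16 of 63 Cre plus members. Timp3, a protease inhibitor of the matrix, had 136 UMIs in Cre plus against 12 in Cre minus (3.64 [2.79, 4.63]), and Cavin3, a coat protein of caveolae, 219 and 30 (3.01 [2.45, 3.61]). Beside them, all 9 measured pan-endothelial genes were higher in Cre plus members, with 825 CPM in Cre plus against 242 CPM in Cre minus, of which the 10 and 8 mixed barcodes held 1487 of 1906 and 380 of 615 UMIs. The 12 lowest were Chsy3, Vegfc, Ppargc1a, Cited1, Pde10a, Hist1h2ae, Hist1h2ab, Ifitm6, Enah, Hist1h2ap, Fcrls and Rapgef4. Ppargc1a had 10 UMIs in Cre plus against 478 in Cre minus, where 5 members carried it. Without mixed barcodes its ratio was 1.11, and those of Cited1 and Rapgef4 were 0.68 and 0.89. Ifitm6, a myeloid membrane protein, had 24 UMIs in 10 Cre plus members and 189 UMIs in 23 Cre minus members (-2.84 [-3.51, -2.22]), 144 of the 189 in unmixed C1q-poor ones. Fcrls, a scavenger receptor of the mouse, had 60 UMIs in 9 Cre plus members and 370 UMIs in 19 Cre minus members (-2.48 [-2.90, -2.09]).

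Within the unmixed C1q-positive members, 6616 genes were measured, of which 220 (3.33%) were 2-fold higher in Cre plus and 92 (1.39%) lower. The genes given here were chosen after their values were seen, among those with a UMI in at least 25% of barcodes of a library and under 50% of UMIs in 1 barcode. Arg1, arginase, had 263 UMIs in 12 of 33 Cre plus and 7 UMIs in 2 of 32 Cre minus barcodes (5.31 [4.25, 6.64]). Egln3, an oxygen sensor induced by hypoxia, had 68 and 7 UMIs (3.36 [2.24, 4.73]), and Vegfa, the growth factor of blood vessels, 81 and 21 (2.03 [1.32, 2.80]). Rsad2 had 372 UMIs in 21 Cre plus and 82 UMIs in 12 Cre minus barcodes (2.26 [1.91, 2.63]). Fcrls had 29 UMIs in 7 Cre plus and 262 UMIs in 15 Cre minus barcodes (-3.09 [-3.70, -2.54]). Cx3cr1, the fractalkine receptor of resident and patrolling cells, had 51 and 181 UMIs (-1.75 [-2.22, -1.29]), and Mgl2, a lectin of macrophages and dendritic cells, 11 and 60 (-2.37 [-3.44, -1.42]). The list of glycolysis and hypoxia genes as a whole had a summed ratio of 0.10 [0.07, 0.14] there, with 3 of 25 genes past 2-fold.

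**Figure D5:**
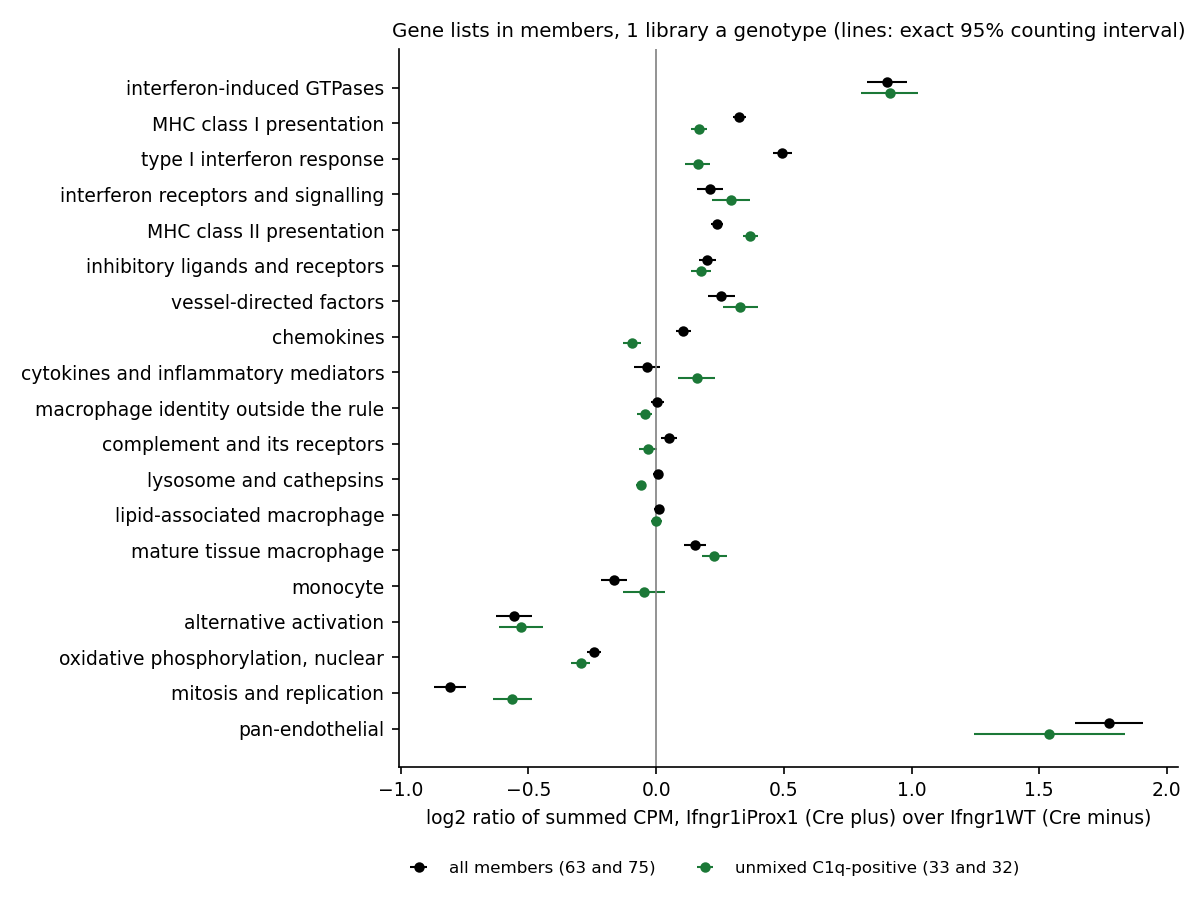
Log2 ratio of summed CPM, Cre plus over Cre minus, for 19 gene lists in all members (black, 63 and 75 barcodes) and in unmixed C1q-positive members (green, 33 and 32), with exact 95% counting intervals. The interferon-induced GTPases lie at 0.90 and 0.91, and mitosis and replication at -0.81 and -0.56.

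Set beside the other classes of the same libraries, members shared the direction of the GTPase list with the B class and not with the L and S classes. The summed ratio was 0.90 [0.82, 0.98] in members, 1.14 [1.07, 1.22] in the B class, 0.04 [-0.01, 0.08] in the M class, -0.74 [-1.04, -0.44] in the 32 and 22 barcodes of the S class and -0.88 [-0.96, -0.80] in the L class. The MHC class II list had a ratio of 0.24 [0.22, 0.26] in members, 0.69 [0.53, 0.86] in the B class, 0.32 [0.29, 0.35] in the M class, -1.29 [-1.61, -0.97] in the S class and -2.82 [-2.92, -2.72] in the L class. In the L class the macrophage identity list, at -0.58 [-0.72, -0.44], and the complement list, at -0.95 [-1.11, -0.80], were lower too, and 55.4% of its Cre plus barcodes against 18.2% of its Cre minus barcodes were rich in Malat1. The part of these in the L class ratios was not tested. Mitosis and replication had a ratio of -0.81 in members, -0.26 in the B class, 0.16 in the M class and 0.41 in the L class. The GTPase list itself stood at 1528 CPM in members and 1167 CPM in the B class of Cre plus, and at 817 and 528 CPM in those of Cre minus. With 1 library per genotype, genotype, pool of tumors and sort cannot be told apart, and the differences between classes were not tested.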

How the data were processed

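Single-cell 3′ RNA was sequenced from sorted tumor cells, 1 library per genotype. The deposited matrices hold counts, whole UMIs per gene and barcode, for 32285 rows; Cell Ranger 7.0.0 and build mm10 are given by the submitters' processing notes. From these counts, members were chosen by the panel rule with python 3.11.15, numpy 2.4.6, scipy 1.17.1 and pandas 2.3.3. No doublets were called, and mixed barcodes stayed in. UMIs were summed over barcodes and scaled to CPM. Shares have Clopper-Pearson, CPM Poisson and log2 ratios conditional binomial intervals. UMIs were counted, so reads copied by PCR were merged; no interval covers animals, tumors or sorts. With 1 library per group no test or p-value was possible. Genes with at least 50 UMIs over both libraries were measured, and called past 2-fold. Of 627 listed symbols, 2 had no row.

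The members and lists were chosen with earlier results of these data known. Named singly were Ifngr1, Ptprc, Pecam1 and panel genes, the 12 highest and 12 lowest ratios by the bound nearest 0 among genes seen in at least 10% of members of a library, up to 6 most counted members of a list, and 15 leading genes. Mitochondrial, ribosomal-protein, haemoglobin, sex-linked marker, receptor-segment and unnamed genes, other panels' genes and 129 that may be free RNA were left out. Other genes named were chosen after their values were seen. On simulated counts for 8697 genes of this comparison, intervals held the true value for 95.5% of unchanged genes, for 94% at folds of 2 and 4 and for 98% at 0.5 and 0.25. The counts were Poisson draws, as the intervals assume, without clumping of UMIs in single barcodes. They check the calculation only, and not how the intervals hold for clumped counts. Alternatives covered barcode filters, panel thresholds, mixed and deep barcodes, Malat1, scaling, thinning and the UMI minimum; a fuller split by kind was chosen after seeing the data. Coordinates are GENCODE M21 on mm10.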

Additional observations from a re-analysis of the deposited data

Results flagged for a closer look

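The interferon-induced GTPases moved in opposite directions in 2 classes of the same libraries. Their summed level, as log2 of Cre plus over Cre minus, was 0.90 in macrophage and monocyte members and -0.88 in the lymphatic class, and with 1 library per genotype the difference was not tested.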

How the results depend on the processing

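No paired analysis was possible because each genotype has 1 library. The share of members kept its value under 9 settings of the filters, thresholds and denominator, within its counting interval, and all 16 identity genes stayed 2-fold above the lymphatic class. The summed GTPase ratio was above 0 under all 17 alternatives, from 0.39 to 1.61. Without mixed barcodes, L panel counts over 10% of P were found in 3.77% of Cre plus and 0% of Cre minus members, and 181 genes were 2-fold higher and 160 lower, against 349 and 275. With P at least 2 times each other panel 243 were higher and 159 lower. Under 0.1% Malat1, which left 4 and 9 members, M panel counts over 10% of P were found in 25% and 0%, and 8 genes were higher and 20 lower of 186. Without members led by another list, that M panel share was 0% in Cre plus. Weighting barcodes equally gave 605 higher and 450 lower, thinning to 1000 UMIs 10 and 12 of 395, a minimum of 20 UMIs 671 and 546, a minimum of 200 UMIs 83 and 69, and unmixed C1q-positive members 220 and 92. Under 5% mitochondrial UMIs 424 were higher and 213 lower, so 66.6% of called genes were higher against 55.9%; that share was 28.6% under 0.1% Malat1, 45.5% when thinned and 70.5% in unmixed C1q-positive members. Scaling by the median ratio shifted all ratios by 0.02.

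Some directions turned, mostly where few barcodes held a gene, and the cause was not tested. With P at least 2 times each other panel Ppargc1a stood at 1.15, Cited1 at 0.38, Pde10a at least 2.48 (15 and 0 UMIs) and Rapgef4 at 0.81, and without mixed barcodes Ppargc1a at 1.11, Cited1 at 0.68 and Rapgef4 at 0.89. Pde10a, with 91.3% of its Cre minus UMIs in 1 barcode, had 3 and 0 UMIs in unmixed C1q-positive members, too few for a ratio. In that set Ppargc1a, Cited1 and Rapgef4 were 0.67, 0.40 and 0.18, Glis3 -0.40, Vegfc 0.082, Cxcl9 -0.56 and the T and NK cell list 0.15. Without members led by another list, the T and NK cell list was 0.62, against -1.53 in all members. Among Cre minus members 1 barcode held 84.3% of the UMIs of that list. Stmn1 was at least 1.76 (5 and 0 UMIs) under 0.1% Malat1 and Mmp14 -0.13 when thinned. Genes under 50 UMIs were not measured, and with 1 library per genotype depth limits only the counting error, not the error between tumors.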
